A study of Mus musculus with 16 samples.

Results

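Livers of 6-month-old mice were compared with livers of 1-month-old mice, both taken 6 days after an injection of diethylnitrosamine (DEN). The comparison used 6 of the 16 liver RNA libraries of the series, 3 per age, and its members were chosen by their labelled age and day. The older group was measured at 6 months, and the younger group, called 1-month-old in the study, is labelled as 3 to 4 weeks of age. All mice were wild-type C57BL/6 males, those of day 6 had received DEN intraperitoneally, and each library held RNA pooled from 3 mice, so that replicates differ as pools of animals do. The labels give the dose as 25 mg per kg of body weight, while the methods of the study give the same figure per gram. Untreated mice of each age provided 2 libraries, and no untreated or vehicle-treated mice were labelled for day 6 itself. A further 3 libraries per age came from day 2.

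DEN is a liver carcinogen that hepatocyte cytochrome P450 enzymes, CYP2E1 above all, turn into an agent that alkylates DNA. Damaged DNA stabilises the transcription factor p53, whose targets stop the cell cycle (Cdkn1a), start apoptosis (Bax, Pmaip1) or switch p53 off again (Mdm2). The liver of a mouse at 3 to 4 weeks is also still growing, and male and female livers diverge at puberty, when the pattern of growth hormone release becomes sex-specific. A comparison of these ages at day 6 therefore holds differences that were there without DEN, and the same age difference in untreated and in day 2 livers is given beside it.

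Total counts of the day 6 libraries lay between 19039330 and 33828996. The hepatocyte genes Ttr and Apoa1 were abundant in every library, whereas albumin (Alb) was listed at 0 in all of them. Replicate 2 of the 1-month day 6 group stood apart from the other libraries of that day. Its clock score, the mean log2 level of the genes that peak with Dbp less that of the genes that peak with Arntl, was -3.03, against 0.278 to 3.84 in the other 5. Dbp, a transcription factor driven by the clock, was at 0.376 CPM (counts scaled to the library's size) there, against 14.3 to 80.3 CPM in the others, and mitochondrial genes took 2.18% of its counts, against 3.82% to 5.09%. Of the 89 genes that passed on day 6 among those the rule for named genes chose, 37 did not pass without this library, and its effect is given beside them by gene or by list.

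The promoters of 3 p53 targets that were higher at 6 months on day 6 (Mdm2, Ccng1 and Ddit4l) and of the male-biased gene Nox4 are shown as examples of the windows searched for the motifs of p53 and STAT5. Each is the 250 bases before the RefSeq transcription start in GRCm38.p6, written 5′ to 3′ on the gene's strand, and lies at chr10:117710759-117711008 (minus strand) for Mdm2, chr11:40755287-40755536 (minus strand) for Ccng1, chr3:137623422-137623671 (plus strand) for Ddit4l and chr7:87246399-87246648 (plus strand) for Nox4. Capitals mark the p53 consensus decamer in the first 3 and TTCNNNGAA, the motif of STAT5, a factor that growth hormone activates, in Nox4.
Mdm2: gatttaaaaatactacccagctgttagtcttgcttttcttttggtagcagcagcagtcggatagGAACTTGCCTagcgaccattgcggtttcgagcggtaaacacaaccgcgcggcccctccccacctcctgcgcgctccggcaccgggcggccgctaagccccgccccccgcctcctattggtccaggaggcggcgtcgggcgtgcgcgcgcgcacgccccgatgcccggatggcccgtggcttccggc
Ccng1: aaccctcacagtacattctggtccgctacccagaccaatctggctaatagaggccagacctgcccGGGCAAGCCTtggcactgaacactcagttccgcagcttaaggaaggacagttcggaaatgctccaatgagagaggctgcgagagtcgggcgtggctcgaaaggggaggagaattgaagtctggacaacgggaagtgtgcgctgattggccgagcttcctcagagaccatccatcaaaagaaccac
Ddit4l: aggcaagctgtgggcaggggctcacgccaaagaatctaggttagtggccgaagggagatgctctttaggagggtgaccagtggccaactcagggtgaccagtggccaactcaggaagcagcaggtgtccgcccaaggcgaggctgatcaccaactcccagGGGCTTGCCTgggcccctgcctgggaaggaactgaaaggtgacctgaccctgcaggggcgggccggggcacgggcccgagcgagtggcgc
Nox4: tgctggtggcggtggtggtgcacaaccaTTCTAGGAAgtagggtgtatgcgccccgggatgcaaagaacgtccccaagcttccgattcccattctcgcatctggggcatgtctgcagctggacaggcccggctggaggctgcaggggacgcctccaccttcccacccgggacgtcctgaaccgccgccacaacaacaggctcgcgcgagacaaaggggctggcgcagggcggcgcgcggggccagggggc
The p53 decamer was searched on both strands, and its consensus reads the same on each. It was in the windows of Mdm2, Ccng1, Ddit4l and Polk, 4 of the 11 p53 targets that passed on day 6 and had a window (36.4%), and in 10 of the 30 listed targets that were tested and had one (33.3%). It was in 6.12% of the 10981 windows of genes tested and in 7.18% of all 27025 windows. TTCNNNGAA also reads the same on both strands. It was in 3 of 13 windows of female-biased genes that passed (23.1%) and in 3 of 24 of those tested (12.5%). For male-biased genes it was in 3 of 9 that passed (33.3%) and in 4 of 23 tested (17.4%). The windows of Eda2r, Plk2 and Phlda3 held no p53 decamer, and those of Cyp2b9, Cyp2c40, Cyp2c69 and Susd4 held no TTCNNNGAA. TTCNNNGAA was in 6.28% of the windows of genes tested and in 7.18% of all windows. These matches describe the letters in the windows and were not tested as sites.

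On day 6 the livers of the 2 ages differed in 701 of 15684 genes tested (4.47%), of which 410 were higher (2.61%) and 291 lower (1.86%) in the older group. A gene counted as different, or passed, where the quasi-likelihood test of edgeR gave a Benjamini-Hochberg adjusted p below 0.1. The higher genes included p53 targets, male-biased liver genes and genes of T cells and myeloid cells, and the lower genes included female-biased cytochrome P450 genes, fetal growth genes, collagens and metallothioneins. The log2 fold change had a median of 1.38 among the higher genes and of -0.82 among the lower ones, and 424 of the 701 reached an absolute value of 1. In 688 of the 701 the libraries of the ages did not overlap, against 20.4% of all genes tested. The same libraries gave the calls, so this separation follows largely from the selection and adds no support. The number of genes depended on single libraries. Without 1-month replicate 1, 2 or 3 in turn 432, 247 and 433 genes passed, and without 6-month replicate 1, 2 or 3 it was 610, 286 and 248. Of the 701 genes, 233 still passed without 1-month replicate 2 and all 701 kept their direction. DESeq2 called 1104 genes, among them 687 of the 701.

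Genes with very low levels in young livers led the higher side. Serpine2 (ENSMUSG00000026249, chromosome 1, 79794197 to 79861180 of GRCm38), a secreted serine protease inhibitor, was at 2.88, 1.88 and 1.73 CPM in the 1-month libraries and at 24.5, 19.3 and 21.8 CPM in the 6-month libraries. The groups lay far apart, and the log2 fold change was 3.35 (SE 0.188, edgeR adjusted p = 4.07e-07). Nat8, an N-acetyltransferase, stood at 3.31, 2.07 and 3.26 CPM against 38, 32.1 and 20.5 CPM (log2 fold change 3.39). Both genes also passed without 1-month replicate 2. Grm8, a glutamate receptor, had 1, 2 and 1 counts in the 1-month libraries and 38, 89 and 95 in the 6-month ones, and Trhde, an ectoenzyme that degrades thyrotropin-releasing hormone, had 2, 1 and 1 against 34, 32 and 84. A fold for these genes would depend on the prior count and is not given. Fbxo40 and Hsf2bp, with totals of 6 and 9 counts over the young group, belong to the same set, as do Ccl3, Ccl4, Pdcd1 and Sirpb1a of the immune genes described further on.

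The lower side was led by genes of the juvenile or female liver. Tcf24, a gene of the helix-loop-helix transcription factor family, was at 9.26, 30.1 and 13.4 CPM at 1 month and at 0.307, 0.353 and 0.216 CPM at 6 months (log2 fold change -5.95, SE 0.457, edgeR adjusted p = 6.91e-06). Hao2, a peroxisomal hydroxyacid oxidase, was at 1.87, 11.2 and 3.66 CPM at the younger age and between 0.0809 and 0.307 CPM at the older. In both genes 1-month replicate 2 was the highest of its group. No overlap between the ages on day 6 was a condition for naming the genes of largest difference each way. Fam107a was at 9.11, 1.28 and 1.02 CPM at 1 month and at 0.115, 0.303 and 0.162 CPM at 6 months, and lost its call in 1 of 15 alternatives, with an edgeR adjusted p of up to 0.131 when a library was left out. Cd209f, a lectin of macrophages, had 80 counts over the young libraries and 4 over the older ones.

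**Figure D1:**
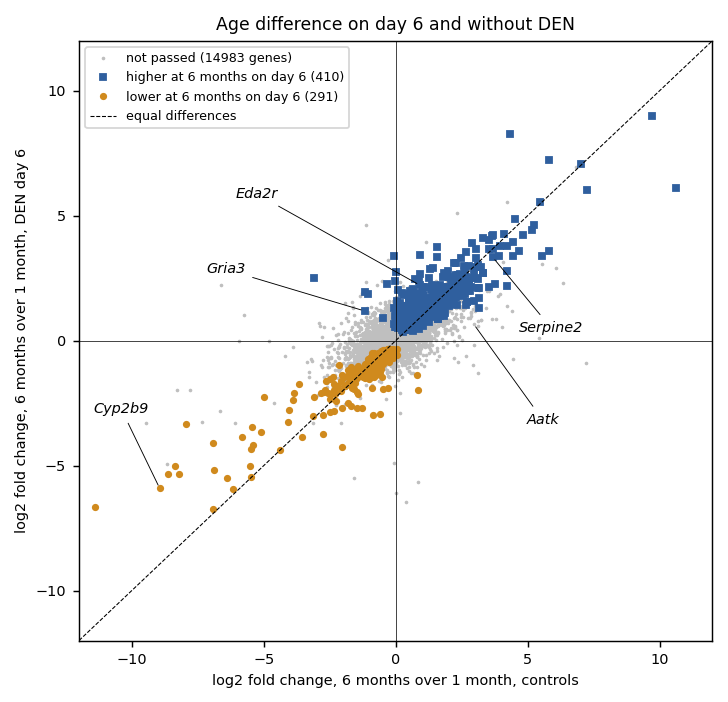
Each point is 1 of 15684 genes, with the log2 fold change of 6-month over 1-month livers in untreated controls on the horizontal axis and on DEN day 6 on the vertical axis, both from the same edgeR model, and the dashed line marks equal differences. Of the 701 genes that passed on day 6 (squares higher, circles lower at 6 months), 683 have the same sign in controls, while Gria3 lies above 0 on day 6 and below 0 in controls.

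Most of the day 6 differences had the direction of the difference without DEN. Of the 701 genes, 683 (97.4%) had the same sign in controls and 690 (98.4%) at day 2, against 70.3% and 73.3% of all genes tested, and the libraries of controls, day 2 and day 6 are separate. The same test found 418 genes in controls (2.67%) and 926 at day 2 (5.9%). Genes called with the same sign on day 6 and in controls numbered 269, which are 38.4% of the day 6 list and 64.4% of the control list. The day 6 and day 2 lists shared 385 genes, 54.9% of the former and 41.6% of the latter. All 3 comparisons called 216 of the genes, among them Serpine2, Nat8, Cyp2c40 and Igf2bp3. A call in neither of the other comparisons was found for 262 genes, of which 141 were higher and 121 lower, and their median absolute log2 fold change was 0.86 on day 6, 0.52 in controls and 0.42 at day 2. Whether these genes differ by age more on day 6 than otherwise needs the test of the change itself, which is given after the gene groups.

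**Figure D2:**
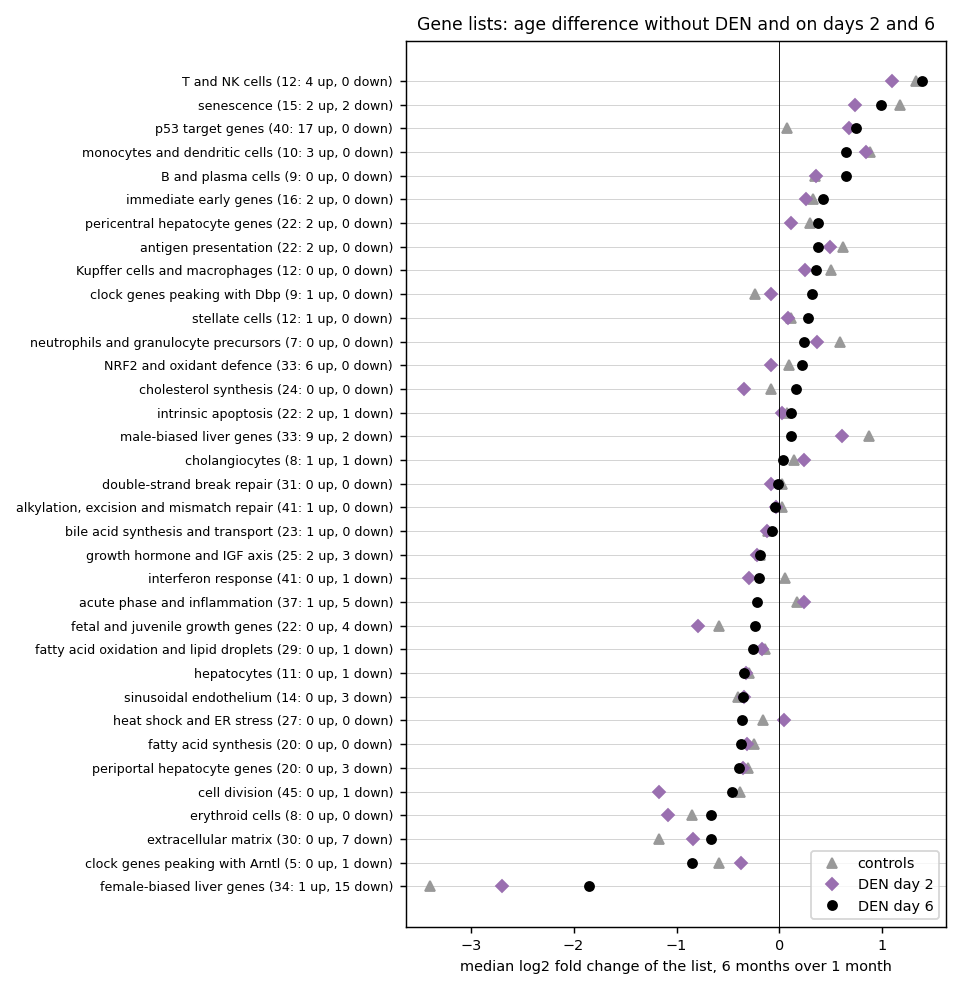
Median log2 fold change of 6-month over 1-month livers for each gene list with at least 5 tested members, in controls (triangles), on DEN day 2 (diamonds) and on DEN day 6 (circles), with the number tested and the number that passed on day 6 in each direction behind the list's name. The p53 targets lie at 0.07 in controls and at 0.67 and 0.75 on days 2 and 6, whereas the female-biased genes lie at -3.39, -2.70 and -1.85.

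Among p53 target genes, calls on day 6 went one way. Of 40 listed targets, all tested, 17 were higher (42.5%, against 2.61% of all genes) and none lower, and their median log2 fold change was 0.75, against -0.01 over all genes. In 22 of the 40 (55.0%) all 3 older libraries lay above all 3 younger ones, against 11.2% of all genes. Plk2 (ENSMUSG00000021701, chromosome 13, 110395044 to 110400844), a polo-like kinase, was at 20.5, 16.2 and 13.4 CPM at 1 month and at 52.8, 46.1 and 45.8 CPM at 6 months, which is 2.89-fold higher (log2 1.53, SE 0.168, edgeR adjusted p = 0.000288). Eda2r (ENSMUSG00000034457, chromosome X, 97333840 to 97377216), a receptor of the TNF receptor family, was at 7.34, 3.8 and 5.47 CPM against 30.4, 20.4 and 25.9 CPM, 4.65-fold higher (SE of log2 0.356, edgeR adjusted p = 0.00477). Neither gene's groups overlapped, and in both the 1-month library nearest to the older group was replicate 1.

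A regulator of p53 itself and a cyclin gene were among those that passed, while the cell cycle inhibitor Cdkn1a, described below, was not. Mdm2, the ubiquitin ligase that degrades p53 and whose promoter is shown above, was at 51.1, 32.2 and 41 CPM at 1 month and at 95.8, 78.6 and 96.5 CPM at 6 months (log2 1.12, SE 0.181, edgeR adjusted p = 0.00477). Ccng1, which encodes cyclin G1, was at 107, 55.2 and 88.8 CPM against 223, 173 and 192 CPM (log2 1.23, SE 0.253, edgeR adjusted p = 0.0226). Ddit4l, an inhibitor of mTOR signalling, was at 3.55, 2.18 and 3.74 CPM against 12.1, 9.84 and 11.4 CPM (log2 1.82, SE 0.249, edgeR adjusted p = 0.00114). The older livers were higher without overlap in all 3. Trp53inp1, a p53 cofactor in stress responses, was at 243, 169 and 145 CPM against 339, 324 and 432 CPM (edgeR adjusted p = 0.0393, and 0.147 without 1-month replicate 2). Phlda3, an inhibitor of AKT, was at 8.87, 2.59 and 10.9 CPM against 36.5, 24.6 and 26.3 CPM, with an edgeR adjusted p of 0.0999 that missed the threshold without 1-month replicate 2 (0.275). Transcripts of p53 itself (Trp53, named after its values were seen) had a log2 fold change of -0.09 (edgeR adjusted p = 0.882).

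**Figure D3:**
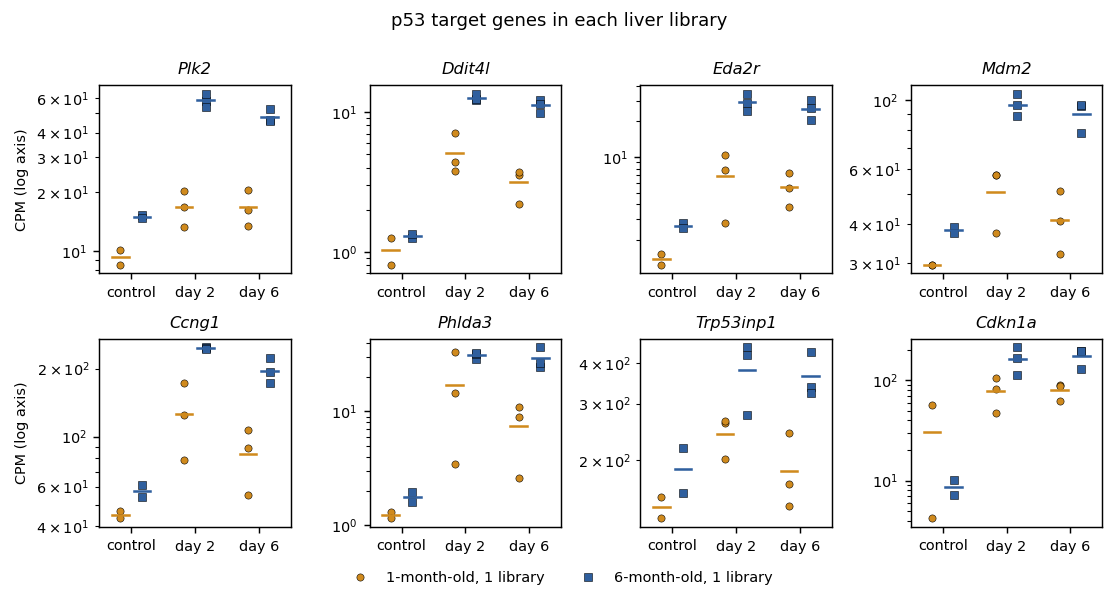
CPM of 8 p53 target genes on a log axis in untreated controls and on days 2 and 6 after DEN, with 1 point per library (circles 1-month-old, squares 6-month-old) and a line at the arithmetic mean of each group. On day 6 every 6-month library is above every 1-month library in all 8 genes, while the controls of both ages are close together for Ddit4l and Mdm2 and Cdkn1a has 1 young control at 56.4 CPM.

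Further targets that passed were Pvt1, Polk, Ddias, Aen, Tnfrsf10b, Dyrk3, Apaf1, Pmaip1, Zmat3 and Trp53cor1. Polk, a polymerase that copies past damaged bases, was 0.98 higher on the log2 scale, and Tnfrsf10b, a death receptor, 1.15 higher. Bax, which permeabilises mitochondria in apoptosis, was at 22.3, 18.5 and 24 CPM against 38, 31.4 and 29.5 CPM and did not pass (edgeR adjusted p = 0.194). Cdkn1a, the cell cycle inhibitor p21, was at 90.8, 87.5 and 62.2 CPM against 197, 129 and 198 CPM without overlap, but did not pass either (log2 1.12, SE 0.585, edgeR adjusted p = 0.387). The young controls of Cdkn1a, which share the estimate of its spread, were at 4.22 and 56.4 CPM. In controls 1 of the 40 targets was higher (Pvt1, against 1.61% of all genes) and none lower, and at day 2 12 were higher and 1 lower, against 3.27% and 2.63% of all genes. The number that passed on day 6 was 13, 6 and 9 without 1-month replicates 1, 2 and 3, and 11, 11 and 8 without 6-month replicates 1, 2 and 3. For no single target did the change of the age difference from controls to day 6 pass.

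DNA repair and cell division genes passed in numbers near or below the share of all genes, 4.47%. None of 31 double-strand break repair genes passed (median log2 fold change -0.01), and of 41 genes of alkylation, excision and mismatch repair only Neil2, a base excision glycosylase, did. Neil2 was at 0.432, 0.301 and 0.315 CPM against 0.652, 1.26 and 0.836 CPM (log2 1.38, edgeR adjusted p = 0.0865) and passed in 7 of 15 alternatives, with an edgeR adjusted p of 0.251 without 1-month replicate 2. Mgmt, which removes alkyl groups from guanine, was at 16.9, 9.77 and 19.6 CPM at 1 month and at 28.2, 25.6 and 21.3 CPM at 6 months, without overlap and without passing (edgeR adjusted p = 0.202). Among 22 genes of intrinsic apoptosis, Apaf1 and Pmaip1 were higher and Aifm1 lower, all 3 at an edgeR adjusted p between 0.0943 and 0.0962. The 2 higher genes are 9.09% of the list and the lower one 4.55%, against 2.61% and 1.86% of all genes, and without 1-month replicate 2 none of the 3 passed (edgeR adjusted p = 0.249, 0.283 and 0.241). Of 45 cell division genes, 40 had a negative log2 fold change (median -0.46) and 1, E2f8, passed. E2f8, a repressor of cell cycle genes, was at 6.38, 17.4 and 10.1 CPM against 4.03, 4.94 and 3.88 CPM, highest in 1-month replicate 2, without which its edgeR adjusted p was 0.303. Mki67, a marker of dividing cells, was at 9.4, 22.1 and 13 CPM against 7.87, 8.98 and 21.3 CPM, with overlapping groups. Cyp2e1, the main activator of DEN, also overlapped, at 6709, 4357 and 7039 CPM against 7479, 5209 and 2994 CPM.

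Some genes of oxidant defence were higher. The transcription factor NRF2 turns on glutathione and NADPH enzymes when cells meet electrophiles, and 6 of its 33 tested list members were higher at 6 months (18.2%, against 2.61% of all genes), with none lower. The other 27 did not pass, 13 of the 33 had a negative log2 fold change, and the median of the list was 0.22. Its own gene Nfe2l2 was at 83.9, 87.4 and 93.6 CPM against 141, 115 and 164 CPM, with no overlap (log2 0.67, SE 0.157, edgeR adjusted p = 0.0435). Ugdh, which makes the UDP-glucuronic acid used to conjugate drugs, was at 214, 238 and 231 CPM against 359, 332 and 378 CPM. Hmox1, the haem-degrading enzyme, was at 23.2, 17.7 and 18.7 CPM against 26.6, 46.8 and 42.3 CPM. Gstm3, a glutathione transferase with close copies in the genome, was at 101, 140 and 140 CPM against 184, 224 and 301 CPM, and its log2 fold change was 0.90 on day 6 and -0.48 in controls. Txnrd1 and Gsta2 were the others that passed. These calls were close to the threshold: without 1-month replicates 1, 2 and 3 the list had 0, 0 and 3 of them, and without 6-month replicates 1, 2 and 3 it had 3, 1 and 0. None of the list passed in controls.

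Female-biased liver genes were lower at 6 months in these males. Of 34 tested, 15 were lower (44.1%, against 1.86% of all genes) and 1 higher, and the median log2 fold change was -1.85. It was -1.14 with a bound for the 5 members at 0 in every library of an age. For these, totals below 3 counts over either group were set to 3. Cyp2c40 (ENSMUSG00000025004, chromosome 19, 39767071 to 39812814), an arachidonic acid-metabolising cytochrome P450, was at 129, 174 and 169 CPM at 1 month and at 4.3, 6.86 and 3.48 CPM at 6 months (log2 -5.03, SE 0.339, edgeR adjusted p = 2.96e-06). Cyp2c69 was at 40.7, 64.1 and 67.9 CPM against 1.73, 1.56 and 0.62 CPM, and Cyp2b9 at 23.6, 15 and 33.4 CPM against 0.883, 0.202 and 0.135 CPM. Cyp2a4, a testosterone hydroxylase, was at 154, 41.1 and 135 CPM against 5.03, 2.37 and 0.889 CPM. In all 4 the ages were far apart, but such Cyp2a, Cyp2b and Cyp2c genes have close copies that may share reads. The others that were lower included Cyp2b10, Fmo2, Abcd2, Hao2, A1bg, Hamp2 and Slc22a26. Ntrk2, a neurotrophin receptor, was the exception, at 2.69, 2.86 and 2.32 CPM against 13.9, 11.5 and 20.1 CPM (log2 2.54, edgeR adjusted p = 0.000711). Without 1-month replicate 3, 6-month replicate 2 or 6-month replicate 3, the lower genes of the list numbered 9 each.

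Male-biased genes were split. Of 33 tested, 9 were higher (27.3%, against 2.61% of all genes), 2, C8b and Keg1, were lower (6.06%, against 1.86%), and 22 did not pass. The log2 fold change was positive in 17 and negative in 16, with a median of 0.11. All older libraries lay above all younger ones in 39.4% of the list, against 11.2% of all genes, and below them in 18.2%, against 9.2%. Mup20, a major urinary protein that carries a male pheromone signal, was at 1952, 1071 and 1109 CPM at 1 month and at 4115, 4987 and 4334 CPM at 6 months (3.25-fold higher, SE of log2 0.232, edgeR adjusted p = 0.00114), and Mup genes too have close copies. Nox4, an oxidase that makes hydrogen peroxide and whose promoter is shown above, was at 12.5, 5.38 and 12.6 CPM against 77.9, 69.5 and 49.9 CPM (log2 2.70, SE 0.336, edgeR adjusted p = 0.00074). Susd4, a complement regulator, was 8.07-fold higher, at 6.91, 3.8 and 5.23 CPM against 49.5, 44.9 and 33.9 CPM. Capn8, a calpain protease, passed at 1.06, 0.865 and 0.315 CPM against 2.99, 4.84 and 4.74 CPM. Cyp7b1, an oxysterol hydroxylase of bile acid synthesis, was at 71.1, 54.6 and 41.4 CPM against 183, 153 and 158 CPM. C6, Gstp2, Fitm1 and Moxd1 made up the rest.

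The sex-biased lists differed less between the ages on day 6 than in controls when described by their medians. For the female-biased genes the median log2 fold change was -3.39 in controls, -2.70 at day 2 and -1.85 on day 6, and -3.13, -2.70 and -1.14 with the genes at 0 set to the bound. For the male-biased genes it was 0.87, 0.61 and 0.11. The calls changed less than the medians. Lower female-biased genes numbered 15 in controls, 17 at day 2 and 15 on day 6, against 1.06%, 2.63% and 1.86% of all genes. Higher male-biased genes numbered 12, 12 and 9, against 1.61%, 3.27% and 2.61% of all genes. No member of either list passed the test of the change from controls to day 6, in which Mup20 had a log2 change of -1.47 and Cyp2b9 one of 3.03. In the young group the mean of Cyp2b9 was 72.4 CPM in controls, 66.6 CPM at day 2 and 23.98 CPM on day 6, and that of Mup20 was 731, 890 and 1377 CPM. The younger mice on day 6 were older by days than those taken without DEN if injected at the same age, and the labels do not give the age at which each was killed, so that days of growth and days after DEN cannot be told apart.

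**Figure D4:**
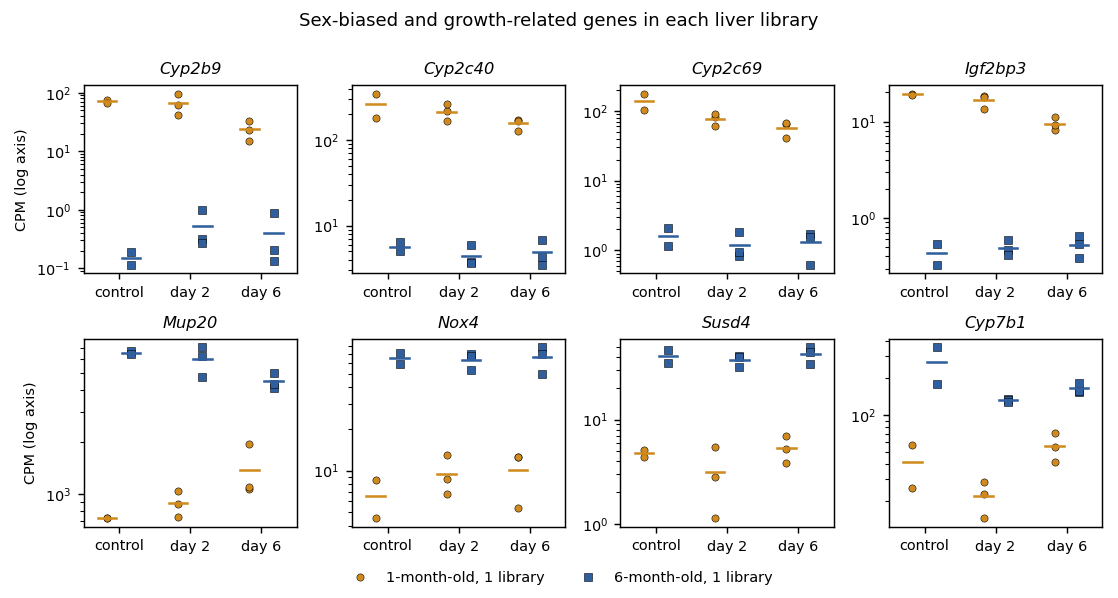
CPM of 8 sex-biased or growth-related genes on a log axis in untreated controls and on days 2 and 6 after DEN, with 1 point per library (circles 1-month-old, squares 6-month-old) and a line at the arithmetic mean of each group. The ages do not overlap in any panel at any time, and on day 6 the young libraries of Cyp2b9 lie between 15 and 33.4 CPM, below the young controls.

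Some genes of the growth axis differed. Of 25 genes of growth hormone and insulin-like growth factor (IGF) signalling, 2 were higher, Jak2 among them, and Igfbp3, Igfals and Esr1 were lower. The higher genes are 8% of the list and the lower ones 12%, against 2.61% and 1.86% of all genes. Igfbp3, the main IGF carrier of blood, was at 27.7, 32 and 26 CPM against 8.98, 8.63 and 16.4 CPM (log2 -1.33, SE 0.239, edgeR adjusted p = 0.0097). Igfals, the partner of Igfbp3 in that complex, was at 147, 171 and 169 CPM against 113, 90.2 and 75.2 CPM. Igf1 itself was at 861, 746 and 698 CPM against 728, 574 and 601 CPM, with overlapping groups (edgeR adjusted p = 0.402). Jak2, the kinase of the growth hormone receptor, was at 17.3, 20.6 and 20.7 CPM against 26, 26.9 and 25.5 CPM, and its edgeR adjusted p of 0.0445 ran up to 0.167 when a library was left out.

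Among 22 tested fetal and juvenile growth genes 4 were lower (18.2%, against 1.86% of all genes) and none higher (median -0.23). All older libraries lay below all younger ones in 36.4% of the list, against 9.2% of all genes. Igf2bp3, a fetal RNA-binding protein, was at 8.11, 11.2 and 9.28 CPM at 1 month and at 0.384, 0.656 and 0.539 CPM at 6 months (log2 -4.19, SE 0.236, edgeR adjusted p = 4.07e-07). H19, an imprinted noncoding RNA, was at 4.56, 13.7 and 2.12 CPM against 0.345, 0.202 and 0.0539 CPM. Both were far below the young level in every older library. Peg3, another imprinted gene, was at 11.9, 23.5 and 8.65 CPM against 4.07, 4.04 and 5.58 CPM, and Tff3, a trefoil peptide, at 14, 28.6 and 9.44 CPM against 3.34, 5.75 and 5.12 CPM. Peg3 and Tff3 were highest in 1-month replicate 2, and without it their edgeR adjusted p was 0.17 and 0.268, so that 2 genes of the list passed. It was also 2 without 6-month replicate 2. The list's median was -0.59 in controls and -0.79 at day 2.

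Some markers of T cells and myeloid cells were higher in the older livers. In bulk RNA, more cells of a type and more RNA per cell cannot be told apart. Of 12 tested markers of T and natural killer (NK) cells 4 were higher (33.3%, against 2.61% of all genes, with a median of 1.39), and the summed level of the list was 9.70 to 12.8 CPM at 1 month and 17.2 to 34.4 CPM at 6 months. Cd8a, the coreceptor of cytotoxic T cells, was at 0.336, 0.263 and 0.55 CPM against 1.92, 2.72 and 4.39 CPM (log2 2.97, SE 0.496, edgeR adjusted p = 0.00595). Nkg7, a protein of cytotoxic granules, was at 0.72, 0.601 and 1.22 CPM against 2.76, 2.98 and 4.82 CPM, and the CD3 chains Cd3d and Cd3e also passed. All older libraries were above all younger ones in 8 of the 12 (66.7%, against 11.2% of all genes). However, without 1-month replicate 2 or without 6-month replicate 3 only 1 passed. The list's median was 1.33 in controls and 1.09 at day 2, where 2 and 4 of its genes passed. Trbc2 was listed at 0 in all day 6 libraries. The markers of B and plasma cells had no call among 9 tested, with Ighm and Igkc at 0.

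A few further immune genes, named for the size of their difference or as members of other lists, had low levels in young livers. Pdcd1, the inhibitory receptor PD-1, had 4, 1 and 3 counts at 1 month and 28, 20 and 75 at 6 months, and the chemokine genes Ccl3 and Ccl4 had 7 and 9 counts over the young libraries and 150 and 206 over the older ones. Ccl5, a chemokine of T cells, was at 2.11, 1.01 and 2.91 CPM against 8.21, 9.03 and 17.5 CPM (log2 2.54, SE 0.458, edgeR adjusted p = 0.00982). For Ccl5 the age difference was 2.66 in controls and 2.69 at day 2 on the same scale.

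Markers of monocytes and dendritic cells were higher in 3 of 10 (30%, against 2.61% of all genes). Their summed level was 76.0 to 112 CPM at 1 month and 104 to 163 CPM at 6 months, with overlap. Itgax, the integrin CD11c, was at 2.21, 0.94 and 1.81 CPM against 5.45, 7.77 and 9.6 CPM (edgeR adjusted p = 0.0237, and 0.109 without 1-month replicate 2). Cx3cr1, the fractalkine receptor, and Itgam, CD11b, passed with log2 fold changes of 1.77 and 1.07, and without 1-month replicate 2 none of the 3 passed. None of 12 markers of Kupffer cells and macrophages passed (median 0.36, summed level 557 to 717 against 620 to 920 CPM). Il1b, an inflammatory cytokine, was at 1.39, 0.94 and 1.22 CPM against 6.87, 14.1 and 6.85 CPM (log2 2.96, SE 0.293, edgeR adjusted p = 0.000125). Sirpb1a, a signalling receptor of myeloid cells, was at 0.144, 0.0752 and 0.236 CPM against 1.11, 2.88 and 1.94 CPM (edgeR adjusted p = 0.0234, and 0.112 without 1-month replicate 2). Ciita and Nlrc5 switch on the antigen presentation genes of class II and class I. They were the 2 of 22 genes of that list that passed, both higher (9.09%, against 2.61% of all genes). Their log2 fold changes were 1.75 and 0.78, and neither passed without 1-month replicate 2. No neutrophil marker of 7 tested, no erythroid marker of 8 and none of the few tested markers of exocrine pancreas (2), adipocytes (4) or epidermis and skeletal muscle (2) passed.

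**Figure D5:**
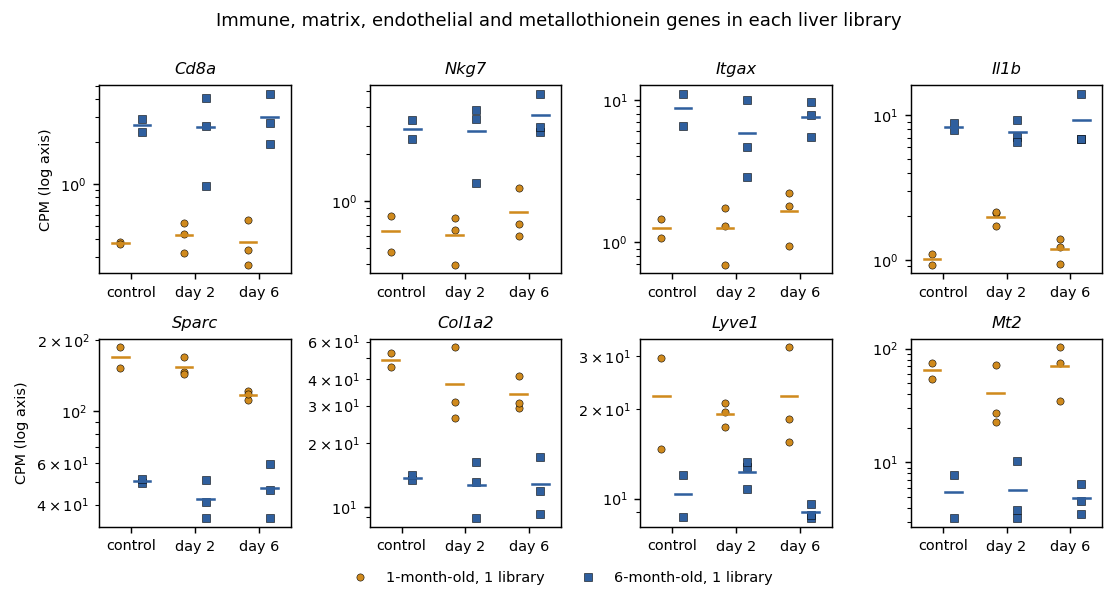
CPM of 8 immune, matrix, endothelial and metallothionein genes on a log axis in untreated controls and on days 2 and 6 after DEN, with 1 point per library (circles 1-month-old, squares 6-month-old) and a line at the arithmetic mean of each group. On day 6 the older libraries are above the younger ones for Cd8a, Nkg7, Itgax and Il1b and below them for Sparc, Col1a2, Lyve1 and Mt2, with no overlap.

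Some extracellular matrix genes were lower. Of 30 tested, 7 were lower (23.3%, against 1.86% of all genes, with a median of -0.67) and none higher: Sparc, Postn, Col1a1, Col1a2, Col3a1, Col4a2 and Eln. Sparc, a collagen-binding glycoprotein, was at 111, 121 and 118 CPM at 1 month and at 35, 46 and 59.6 CPM at 6 months (log2 -1.31, SE 0.178, edgeR adjusted p = 0.00112). Col1a2, a chain of fibrillar collagen, was at 29.4, 41.5 and 30.7 CPM against 9.32, 11.9 and 17.2 CPM (log2 -1.40, SE 0.296, edgeR adjusted p = 0.0259, and 0.104 without 1-month replicate 2). Postn, a matrix protein of wound repair, was at 22.6, 17.3 and 15.4 CPM against 8.52, 9.18 and 8.71 CPM, and Col4a2, of basement membranes, at 48, 67.4 and 51.4 CPM against 17.8, 28.8 and 35.7 CPM. In controls 10 of the list were lower, with a median of -1.17. The stellate cell markers, which include the cells that make collagen, did not pass with them: their summed level was 333 to 364 CPM at 1 month and 349 to 504 CPM at 6 months, and none of 12 was lower. Rgs5, 8.33% of the list against 2.61% of all genes, was higher (edgeR adjusted p = 0.0997). It passed in 6 of 15 alternatives and not without 1-month replicate 2 (0.311). Without 1-month replicate 2 the matrix list had 2 lower genes and without 6-month replicate 2 it had 4.

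Sinusoidal endothelium showed 3 lower markers of 14 tested (21.4%, against 1.86% of all genes) and none higher. The summed level was 509 to 736 CPM at 1 month and 372 to 546 CPM at 6 months. Lyve1, a hyaluronan receptor, was at 32.2, 15.5 and 18.6 CPM against 8.59, 8.83 and 9.57 CPM (log2 -1.29, SE 0.273, edgeR adjusted p = 0.0256). Oit3 was at 38.9, 28.5 and 31.2 CPM against 13, 18.4 and 21.1 CPM, and Gpr182, a receptor of endothelial cells, at 38.8, 23.5 and 28.9 CPM against 12.2, 16.6 and 21.3 CPM. In each the older libraries were lower without overlap. Without 1-month replicate 2 all 3 still passed, while Gpr182 passed in 9 of 15 alternatives, with an edgeR adjusted p of up to 0.214 when another library was left out. The cholangiocyte markers gave 1 call each way among 8, Tspan8 higher and Krt23 lower. Each is 12.5% of the list, against 2.61% of all genes higher and 1.86% lower. Neither passed without 1-month replicate 2 (edgeR adjusted p = 0.249 and 0.18).

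Acute phase and inflammation genes went in both directions, with 1 of 37 higher (Il1b) and 5 lower, or 2 lower without 1-month replicate 2. The higher gene is 2.7% of the list and the 5 lower ones 13.5%, against 2.61% and 1.86% of all genes. Metallothioneins, which bind zinc and copper and respond to glucocorticoids, differed most. Mt2 was at 74, 103 and 34.4 CPM at 1 month and at 4.57, 3.48 and 6.42 CPM at 6 months (log2 -3.85, SE 0.589, edgeR adjusted p = 0.00324), and Mt1 at 102, 128 and 68.2 CPM against 12.9, 11.1 and 12.6 CPM. Their age differences in controls were -3.53 and -3.12 on the log2 scale. Fkbp5, another glucocorticoid-responsive gene, named after its values were seen, was at 239, 82.2 and 86.7 CPM against 48.5, 36.2 and 25.5 CPM. Its log2 fold change was -1.89 on day 6 (SE 0.403, edgeR adjusted p = 0.0263) and -1.66 in controls (edgeR adjusted p = 0.132). Glucocorticoid targets were not listed as a group, so these genes do not show how such targets differed. Saa4, a constitutive serum amyloid A, was at 702, 473 and 398 CPM against 333, 276 and 259 CPM (edgeR adjusted p = 0.0561), while its difference was -0.27 in controls and 0.15 at day 2. Serpina3m and Il6ra were also lower. The inducible amyloids overlapped, with Saa1 at 111, 251 and 103 CPM against 90.3, 106 and 149 CPM. Of 41 interferon response genes Ifi44 was lower (2.44%, against 1.86% of all genes). Of 16 immediate early genes Nr4a1 and Atf3 were higher (12.5%, against 2.61% of all genes). Without 1-month replicate 2 Ifi44 and Atf3 did not pass (edgeR adjusted p = 0.207 and 0.289), nor did Saa4. Nr4a1, an orphan nuclear receptor induced within minutes of a stimulus, was at 1.2, 0.977 and 2.01 CPM against 6.45, 30.5 and 7.01 CPM, with 6-month replicate 2 far above the other libraries.

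Hepatocyte functions showed scattered differences. Of 20 periportal genes 3 were lower (15%, against 1.86% of all genes). They were the serine dehydratases Sds and Sdsl and the phospholyase Etnppl. Etnppl was at 240, 145 and 211 CPM against 78.5, 89.8 and 96.9 CPM (log2 -1.17, SE 0.197, edgeR adjusted p = 0.00638). In 12 of the 20 (60%) all older libraries were lower, against 9.2% of all genes. Of 22 pericentral genes Rgn, a calcium-binding protein of vitamin C synthesis, and Gstm3 were higher (9.09%, against 2.61% of all genes). Neither passed without 1-month replicate 2. Apoa4, an apolipoprotein that follows liver fat, was at 132, 227 and 119 CPM against 70, 57.2 and 60.4 CPM. It was the 1 gene that passed of 29 for fatty acid oxidation and lipid droplets (3.45%, against 1.86% of all genes lower). In bile acid synthesis and transport Cyp7b1 was the 1 of 23 (4.35%, against 2.61% of all genes higher). No gene passed of 24 for cholesterol synthesis, 20 for fatty acid synthesis or 27 for heat shock and endoplasmic reticulum stress. Ahsg, the plasma protein fetuin-A, was at 10824, 15287 and 11936 CPM against 6154, 6272 and 6057 CPM (log2 -1.04, SE 0.172, edgeR adjusted p = 0.0057), and all 11 tested hepatocyte markers had a negative log2 fold change (median -0.34), with a summed level of 56362 to 77204 CPM at 1 month and 46747 to 48818 CPM at 6 months. The part of this shared shift in the differences of other genes was not tested.

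The clock genes varied widely within groups. Nr1d1, a repressor of the clock, was at 21.3, 33.4 and 40.5 CPM against 39.1, 107 and 96.9 CPM, and Cry1, another, at 30.4, 22.6 and 13.5 CPM against 10.6, 8.68 and 6.6 CPM. They were the calls among 9 genes that peak with Dbp (11.1%, against 2.61% of all genes higher) and 5 that peak with Arntl (20%, against 1.86% lower). Without 1-month replicate 2 neither passed, at an edgeR adjusted p of 0.204 and 0.183. Dbp was at 28.1, 0.376 and 58.5 CPM against 80.3, 39.7 and 14.3 CPM, and Arntl at 4.61, 37.8 and 10.7 CPM against 1.15, 12.9 and 16.2 CPM. Of 15 tested senescence genes, Ccl5 and Cdkn2a were higher and Igfbp3 and Glb1 lower (13.3% each way, against 2.61% and 1.86% of all genes). Cdkn2a, which encodes the cell cycle inhibitors p16 and ARF, had 3, 1 and 1 counts at 1 month and 10, 14 and 53 at 6 months. Its edgeR adjusted p was 0.0234, and 0.111 without 1-month replicate 2. Glb1, the lysosomal beta-galactosidase, was at 19.4, 22.3 and 22.3 CPM against 16.4, 15.2 and 14.1 CPM, and did not pass without 1-month replicate 2 (edgeR adjusted p = 0.128).

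A change of the age difference between untreated livers and day 6 was found for 2 genes of 15684 (0.0128%), by a contrast of the differences in the same edgeR model. An unadjusted p below 0.05 was found for 299 (1.91%), fewer than that threshold alone would give without any change. A gene that did not pass may therefore still have changed. Gria3, an AMPA-type glutamate receptor subunit (ENSMUSG00000001986, chromosome X, 41400854 to 41678601), was at 12.3, 10.1 and 8.1 CPM in young and at 25.1, 19.3 and 24.9 CPM in older livers on day 6. In controls the order was the opposite, with 4.87 and 6.76 CPM at 1 month and 2.47 and 2.65 CPM at 6 months. The log2 age difference was 1.19 on day 6 and -1.18 in controls, a change of 2.37 (SE 0.345, edgeR adjusted p = 0.0599). Aatk, a kinase named for apoptosis (ENSMUSG00000025375, chromosome 11, 120007313 to 120047167), was at 1.63, 2.1 and 1.97 CPM against 3.45, 2.93 and 2.75 CPM on day 6, and at 1.92 and 1.6 CPM against 13.4 and 13.7 CPM in controls. Its change was -2.28 (SE 0.316, edgeR adjusted p = 0.0599), and the 6-month controls were the libraries that stood apart. The number of such genes was 0 when 1-month control replicate 2, 1-month day 6 replicate 2 or 3, 6-month control replicate 2 or any 6-month day 6 library was left out, and 11 without 6-month control replicate 1 or by DESeq2.

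Other genes with a small p in this contrast did not pass. Sulf2, a sulfatase of heparan sulfate, was at 15.4, 11.8 and 19.5 CPM against 23, 21.1 and 23.2 CPM on day 6, while its control means were 14.3 and 6.66 CPM (change 1.62, edgeR adjusted p = 0.24). Cyp2a22 was at 13.9, 11.3 and 23.4 CPM against 4.45, 2.82 and 2.86 CPM, with control means of 43.2 and 1.34 CPM. Nnmt, which methylates nicotinamide, was at 116, 62 and 74.8 CPM against 95.8, 75.7 and 72.9 CPM, overlapping on day 6, with control means of 38.9 and 95.8 CPM. In Nnmt, as in Srd5a1 and Saa3, the ages were closer on day 6 than in controls, without a change that passed. The gene 2410089E03Rik, chosen after its values were seen, was at 7.39, 6.24 and 6.41 CPM against 84.5, 59.3 and 73.7 CPM on day 6, with control means of 4.57 and 8.64 CPM, and its change of 2.53 (SE 0.419) had an edgeR adjusted p of 0.156.

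From day 2 to day 6 no gene passed the test of a changed age difference by the same edgeR contrast, and DESeq2 called 5. An unadjusted p below 0.05 was found for 321 genes (2.05%), again fewer than that threshold alone would give without any change. The genes with the smallest p included acute phase proteins. Orm2, an orosomucoid, was at 24.2, 14.1 and 16 CPM against 28.2, 22.6 and 40.5 CPM on day 6, overlapping, whereas its day 2 means were 12.1 CPM at 1 month and 102 CPM at 6 months. Saa1 and Saa2 had day 2 means of 45 and 19.5 CPM at 1 month and of 461 and 306 CPM at 6 months, and Lcn2, an iron-sequestering protein of inflammation, had 13.8 and 75.7 CPM. On day 6 the ages overlapped in all 4 of these genes and none passed. Scara5, a ferritin receptor, was at 9.79, 5.86 and 1.81 CPM against 20.2, 22.5 and 26.7 CPM on day 6 (log2 2.00, edgeR adjusted p = 0.0994, and 0.241 without 1-month replicate 2), and its day 2 means were 0.269 and 17.3 CPM.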

How the data were processed

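RNA of 16 liver libraries was counted per gene. The authors prepared TruSeq libraries, sequenced them on a NextSeq and mapped reads to GRCm38, for which the submitters' processing notes name cutadapt, TopHat2 2.0.13, Cufflinks 2.2.1, Cuffnorm and DESeq2 1.10.1. The authors deposited raw counts for 47729 genes, and the program that counted them and its strand setting are not stated in the sources read, so overlapping genes and close copies may share reads. Left out were 10 genes with no count given, 16 columns of normalized counts and the authors' columns of fold changes and p-values.

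Counts were scaled by TMM and filtered with filterByExpr over the 6 groups, which left 15684 genes. Age differences and their changes were tested in 1 model of all 16 libraries (edgeR 4.0.16, limma 3.58.1, R 4.3.3) with Benjamini-Hochberg adjustment and a threshold of 0.1, and the model was tested on simulated counts. Libraries of a group varied by a common biological coefficient of 0.218. Fold changes have a prior count of 0.125, log2 CPM has 2, and levels are CPM over TMM-scaled sizes. Alternatives were RLE or upper quartile scaling, no filter, a replicate block, the clock score as a covariate, leaving out libraries, a model of fewer groups, and DESeq2 1.42.0.

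Named were the 12 genes with the largest difference each way that passed, provided the higher group averaged 1 CPM or more, with a count in every library of the lower group, no overlap and an official symbol, up to 4 members of each list that passed, the 10 genes of smallest p in each change contrast, and 15 genes whatever their test. Some genes that this rule names are not reported here. The 38 gene lists came from general knowledge, and 10 of the 11 erythroid markers matched the table. The comparison, lists and named genes were chosen with earlier results of these data known. Promoters are from RefSeq, with those on chromosome 18 left out, and windows were found for 10981 of 15669 symbols tested. Plots used matplotlib 3.10.9, numpy 2.4.6 and pandas 2.3.3 in Python 3.11.15.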

Additional observations from a re-analysis of the deposited data

Results flagged for a closer look

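Gria3 and Aatk are given here because their age difference on day 6 differed from that in untreated livers by a test of the difference itself. For Gria3 the log2 change was 2.3698, from a lower level at 6 months in controls to a higher one on day 6, and the ages did not overlap at either time. For Aatk it was -2.2768, and its 6-month control libraries, at 13.4 and 13.7 CPM, stood above all other libraries, which lay at 1.60 to 3.45 CPM. Both rest on 2 control libraries per age. Groups of 3 libraries are too small for the test of single libraries that stand apart, so none is listed.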

How the results depend on the processing

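Genes higher and lower at 6 months on day 6 numbered 410 and 291. With the clock score as covariate they numbered 711 and 625, by DESeq2 618 and 486, and without the 3 libraries that had the lowest clock scores 168 and 137. Without the filter 628 were higher, and in a model of the day 6 groups alone 174 were lower. Leaving out 1 library gave 137 to 379 higher and 98 to 231 lower. RLE and upper quartile scaling moved neither count by 1.5 times. The 3 libraries of lowest clock score were all young: 1-month control replicate 2, day 2 replicate 3 and day 6 replicate 2. Without them 1 young control library was left, on which the control values of that setting rest. The change from controls (2 genes) had 22 without the filter, 0 without the 3 libraries, 11 by DESeq2 and 0 to 11 with 1 library left out. The change from day 2 (0 genes) had 22 without the filter, 5 by DESeq2 and 0 with any library left out. The control comparison (418 genes) had 794 without the filter, 819 with the covariate, 158 without the 3 libraries, 111 in the model of its groups, 746 by DESeq2 and 114 to 276 with 1 library left out. The day 2 comparison (926) had 1931 with the covariate, 464 in the model of its groups, 1479 by DESeq2 and 385 to 2259 with 1 library left out.

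Without the 3 libraries 9 p53 targets, 2 NRF2 genes and 1 T or NK cell marker were higher and 2 fetal genes lower. Lower matrix genes numbered 11 under the replicate block, with the covariate and by DESeq2. With 1 library left out the counts were 6 to 13 for p53 targets, 9 to 11 for female-biased, 6 to 8 for male-biased, 2 to 8 for matrix, 0 to 3 for NRF2, 1 to 5 for T and NK cell and 2 to 4 for fetal genes. The cause of these moves was not tested.

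Replicate numbers are shared by the ages. Same-numbered day 6 libraries deviated together with r = 0.269, 0.0376 and -0.0319. Over all same-numbered libraries of different groups r ran from -0.302 to 0.588. The numbers were not taken as pairs in the main model. With the replicate block 761 genes passed, 632 of them among the 701. In only the day 6 libraries, an alternative chosen after seeing the data, the replicate block left 174 lower and 490 in all. Of 1680 values of the 112 named genes under the alternatives, 1436 kept their side of the threshold, 233 lost a call, 11 gained one and 0 changed direction.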
